A study of Mus musculus with 8 samples.

Results

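The V1 sector of the vacuolar proton pump was described in mouse ventral midbrain through the 9 genes that encode its subunits in this tissue: Atp6v1a, Atp6v1b2, Atp6v1c1, Atp6v1d, Atp6v1e1, Atp6v1f, Atp6v1g1, Atp6v1g2 and Atp6v1h. They were a named list, matched by symbol to the deposited count table, and each was represented by 1 RefSeq row. They make up 9 of 15359 genes, and all 9 passed the filter on low counts. The row of a gene was chosen by its total count over the 8 libraries, and the list was selected with the mutant-to-wild-type contrast of these libraries in view, so the genotype differences of the 9 genes are given as a description. Where a count of them past a threshold is printed, nothing is read from it.

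RNA came from the ventral mesencephalic area, home to the dopaminergic neurons that degenerate in Parkinson disease. The groups were 4 Ercc1 delta/+ samples, from mice with 1 mutant and 1 normal allele of the DNA repair gene Ercc1, and 4 wild type samples. Both groups had the mixed FVB:C57BL/6J background and a regular diet, and neither ages nor the pairing of animals is given in the sources used here. The delta allele is carried in every cell, and the tissue was taken whole, so a level reflects all cell types of the dissected piece. Whether every sample came from its own animal is not stated in the labels; p-values therefore reflect variation among the samples as given, part of which may be technical.

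The vacuolar H+-ATPase, or V-ATPase, is a rotary motor that acidifies lysosomes, endosomes and, in neurons, synaptic vesicles, where the proton gradient powers the loading of transmitter. Its cytosolic V1 sector hydrolyses ATP, and this turns a central rotor that drives protons through the membrane-bound V0 sector. In V1, subunits A and B form the head, D and F the rotor, E and G the peripheral stalks that hold the head still, and C and H join V1 to V0 and control its reversible release. Mouse has alternative genes for B, C, E and G, and in brain G2 is known as the neuronal form of G while G1 is found in most tissues.

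Libraries held between 18303913 and 31261889 counts after 1 row was kept per gene, at which 3 counts correspond to 0.164 and 0.096 CPM (counts scaled to library size). The shallower 4 libraries were 3 mutants (replicates 1, 2 and 4) and wild type replicate 2, so depth overlaps with genotype. Ercc1 itself had a mean of 11.5 ± 1.17 CPM in the mutant libraries against 14.5 ± 0.723 CPM in wild type (SD; n = 4 per group). Its groups did not overlap, and its log2 fold change of -0.34 (SE 0.10) missed the threshold of edgeR's quasi-likelihood test (adjusted p = 0.113). All 7 dopaminergic markers checked, among them Th and Slc6a3, were detected in every library. Their summed level was 167 to 333 CPM in the mutant libraries and 230 to 375 CPM in the wild types. Log2 fold changes were negative for 5 of the 7 and positive for 2 (median -0.11). General neuron markers were positive for 6 of 8 and negative for 2 (median 0.09). Of 10 choroid plexus markers, 10 had a positive log2 fold change, and their summed level ran from 413 to 2065 CPM in mutants and from 353 to 586 CPM in wild type, highest in mutant replicate 3. Of 5 endothelial markers, 4 were positive (median log2 fold change 0.23), with a summed level of 174 to 232 CPM in mutants and 166 to 179 CPM in wild type. Of 7 forebrain and thalamic neuron markers, 5 were positive (median 1.29), with sums of 393 to 626 CPM in mutants and 405 to 791 CPM in wild type. Markers of astrocytes, oligodendrocytes and microglia had medians of -0.02, -0.07 and 0.01. The part of any of these cell types in the results below was not tested.

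The results below turn on the G genes, and their coding sequences are shown to compare them. The first 96 coding bases are printed here from the GENCODE M21 transcripts linked to the counted RefSeq identifiers, with the 19 bases that differ between the genes in capitals.
Atp6v1g1: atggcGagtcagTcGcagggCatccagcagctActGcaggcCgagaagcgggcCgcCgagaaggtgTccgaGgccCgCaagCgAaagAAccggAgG
Atp6v1g2: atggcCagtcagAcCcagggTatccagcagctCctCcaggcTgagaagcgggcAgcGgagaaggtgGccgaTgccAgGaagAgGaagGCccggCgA
Over the whole coding sequence, 354 bases in each gene, 234 of 352 aligned bases (66.5%) were identical. The longest identical run was 11 bases.

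The promoters of 5 of the 9 genes (Atp6v1a, Atp6v1d, Atp6v1e1, Atp6v1f and Atp6v1g2) and of 8 of 10 genes of the V0 sector were matched in the RefSeq promoter table of build GRCm38.p6, which spans 250 bases before to 50 bases after the start. They were searched on both strands for CACGTG, the core of the element that TFEB and related transcription factors bind at lysosomal genes. Printed below are the head subunit A, whose promoter holds it, the rotor subunit F, whose promoter does not, and the V0 gene Atp6v0b, which holds it in 2 places; the motif is in capitals.
Atp6v1a (chr16:44139210-44139509, minus strand): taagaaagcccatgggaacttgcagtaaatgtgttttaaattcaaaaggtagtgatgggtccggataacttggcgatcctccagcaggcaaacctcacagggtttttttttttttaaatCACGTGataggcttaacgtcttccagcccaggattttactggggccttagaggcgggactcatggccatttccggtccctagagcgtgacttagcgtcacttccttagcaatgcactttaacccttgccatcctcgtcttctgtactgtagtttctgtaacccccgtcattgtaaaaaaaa
Atp6v1f (chr6:29467533-29467832, plus strand): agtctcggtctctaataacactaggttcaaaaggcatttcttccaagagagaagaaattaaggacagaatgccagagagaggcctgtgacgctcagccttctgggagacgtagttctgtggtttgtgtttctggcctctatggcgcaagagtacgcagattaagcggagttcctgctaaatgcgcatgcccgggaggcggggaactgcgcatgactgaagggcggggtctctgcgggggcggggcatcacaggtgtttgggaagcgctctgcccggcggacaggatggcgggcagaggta
Atp6v0b (chr4:117887280-117887579, minus strand): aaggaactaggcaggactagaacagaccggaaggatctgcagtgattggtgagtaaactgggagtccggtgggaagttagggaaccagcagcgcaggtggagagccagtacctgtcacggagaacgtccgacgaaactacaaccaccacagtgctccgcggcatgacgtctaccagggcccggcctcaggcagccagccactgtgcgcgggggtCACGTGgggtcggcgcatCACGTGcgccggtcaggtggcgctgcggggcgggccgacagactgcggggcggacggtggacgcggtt
CACGTG was found in 1 of 6 promoters of V1 genes (Atp6v1g2 has 2 entries) and in 3 of 12 promoters of V0 genes, against 7.15% of all 32851 promoters in the table. In Atp6v1a it starts at position -131 relative to the start, and in Atp6v0b at -36 and -18. The genomic build of the counts is mm9, so these positions serve only for the sequences.

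Levels per transcript length, in CPM per kilobase of the linked transcript, fell into an order that left the peripheral stalk and the head on top. These lengths are of the longest linked transcript and were not checked in this tissue. The order, ratios and shares between genes rest on them. In wild type, Atp6v1b2, the brain form of subunit B, stood at 245 ± 10.1 CPM per kilobase (SD, n = 4). Atp6v1g2 followed with 238 ± 21.0 and Atp6v1e1, the stalk subunit E, with 200 ± 14.0. The ranges of Atp6v1b2 and Atp6v1g2 over the wild type libraries overlapped, as did those of Atp6v1g2 and Atp6v1e1. These neighbours were not compared within each library, so the overlap does not show equal levels. Atp6v1a, the catalytic subunit, was next at 128 ± 0.87 CPM per kilobase. It was apart from both of its neighbours, and of the 9 genes it was the steadiest, with a within-group SD of 0.042 on the log2 CPM scale, a value that 1.19% of genes tested undercut.

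The lower part of the order held the rotor, the V1-to-V0 connectors and the other G gene. Atp6v1f (110 ± 4.33 CPM per kilobase) and Atp6v1c1 (103 ± 5.81) overlapped, as did Atp6v1g1 (76.5 ± 2.20) and Atp6v1h (73.8 ± 2.79). Atp6v1d, the other rotor subunit, was lowest at 47.2 ± 3.42 CPM per kilobase (SD, n = 4 each). The ratio of Atp6v1a to Atp6v1b2, which encode the alternating subunits of the head, was 0.522 ± 0.0239 in wild type and 0.524 ± 0.0371 in mutants (SD, n = 4 each). In the mutants the order differed at 3 places. Atp6v1g2 changed place with Atp6v1b2 and Atp6v1c1 with Atp6v1f, with ranges that overlapped in both genotypes. These genes were not compared within each library. Atp6v1g1 (58.1 ± 2.55) came below Atp6v1h (68.0 ± 3.07) with no overlap.

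Of the alternative V1 genes, Atp6v1c2 had a row and the renal and testis forms Atp6v1b1, Atp6v1e2 and Atp6v1g3 are not analysed here. Atp6v1c2 was near the bottom of the range measured, with 0.735 to 2.38 CPM in the mutant libraries and 0.886 to 2.65 CPM in the wild types. It took 0.405% to 1.73% of the summed per-length level of the C genes, and Atp6v1c1 the rest in each of the 8 libraries.

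Across genotypes, the 9 genes differed little, with Atp6v1g1 and Atp6v1f at the low end. Of the 9, 8 log2 fold changes were below 0 and 1 was above, against 50.5% negative among the 15074 genes tested. Their median was -0.04, from -0.40 for Atp6v1g1 to 0.08 for Atp6v1g2, beside a median of -0.0028 for all genes tested. The median of the 9 was -0.12 without mutant replicate 2 and -0.0046 without mutant replicate 3. With an offset that removes each library's trend over length and GC, Atp6v1a, Atp6v1c1, Atp6v1d, Atp6v1e1 and Atp6v1h turned positive, at 0.0087 to 0.065. Atp6v1g2 stayed positive, and Atp6v1b2, Atp6v1f and Atp6v1g1 stayed below 0. By the edgeR quasi-likelihood test 0 of the 9 passed an adjusted p of 0.05, where 0.0464% of all genes did. At an unadjusted p of 0.05 the count was 2 of 9 (Atp6v1g1 and Atp6v1f, both lower), against 18.7% of all genes. DESeq2, limma-voom and the edgeR exact test each called 1 of 9, Atp6v1g1, against 7.54%, 0.345% and 3.69% of genes. The groups did not overlap for 1 of 9, again Atp6v1g1; of all genes 12.1% did not overlap, 6.88% with all mutants below all wild types and 5.17% with all above.

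**Figure D1:**
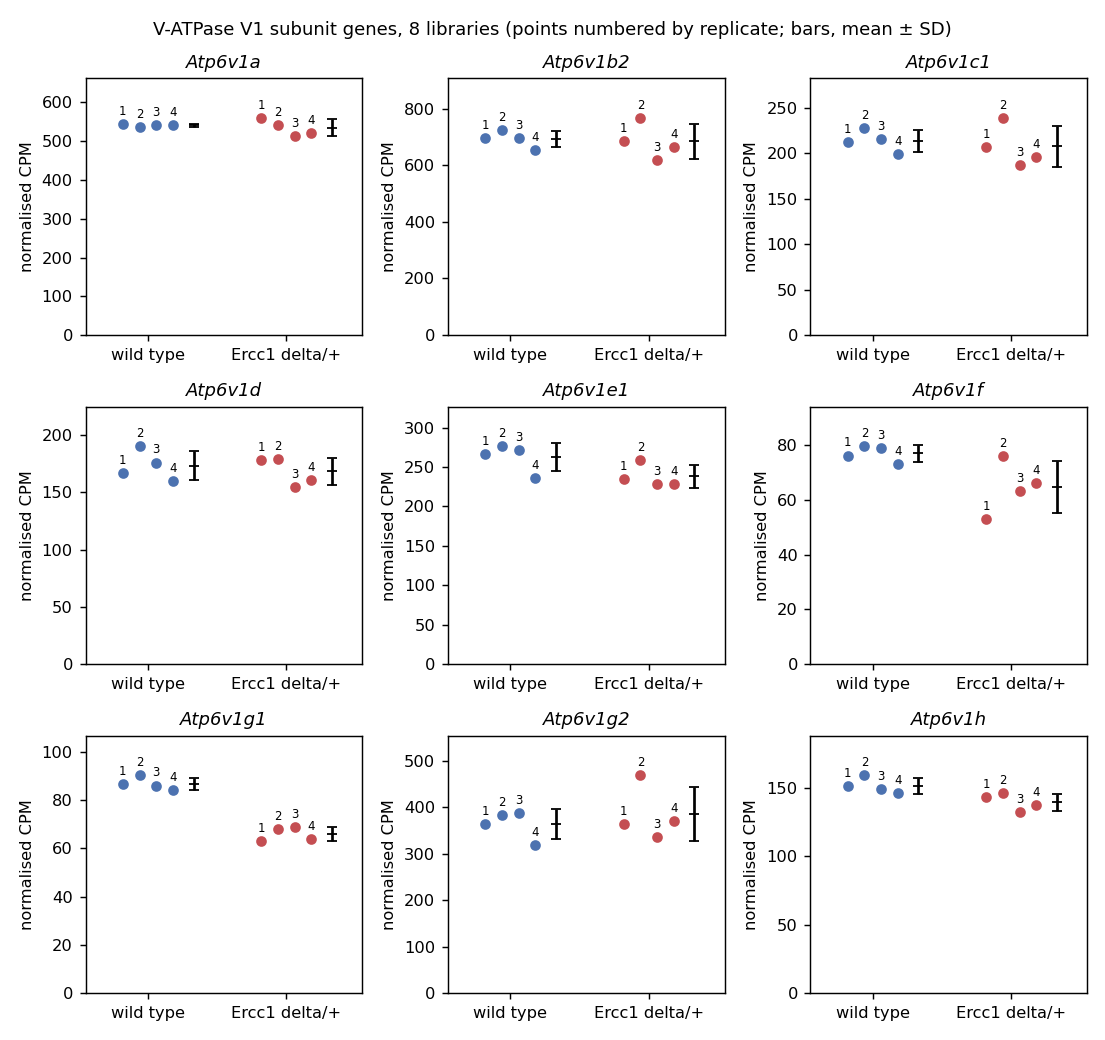
Normalised CPM (vertical axis from 0) of the 9 V1 genes in 4 wild type (blue) and 4 Ercc1 delta/+ (red) libraries, each point numbered by replicate, with the group mean ± SD as a black bar. In the panel of Atp6v1g1 the mutants sit between 63.0 and 68.7 and the wild types between 84.4 and 90.3, and in the other 8 panels the groups overlap.

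Atp6v1g1, the widely expressed peripheral stalk subunit, separated the groups. Its level in Ercc1 delta/+ replicates 1 to 4 was 63.0, 68.2, 68.7 and 63.9 CPM, and in wild type replicates 1 to 4 it was 86.6, 90.3, 86.1 and 84.4 CPM. Every mutant library was below every wild type library, and the gap between the groups was wider than the range within either. The mutant mean was 65.9 ± 2.89 and the wild type mean 86.8 ± 2.49 CPM (SD; n = 4 per group). The log2 fold change was -0.40 (SE 0.06), which puts the mutants at 0.759 of wild type. Wild type replicate 2, which is among the 4 shallower libraries, held the highest level of the 8. Mutant replicate 3, the deepest mutant library, held the highest level of the mutants.

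The transcript length of Atp6v1g1 and its near-identical copies are given beside this difference. Its linked transcript has 1135 bases, which puts it in the shortest 10% of genes (264 to 1264 bases), whose median log2 fold change was -0.21; with an offset that removes each library's trend over length and GC the log2 fold change of Atp6v1g1 was -0.20. It also has near-identical processed pseudogenes: Gm13453 matched it at 99.44% over 357 bases and Gm12344 at 95.819% over 287 bases. The sources used here do not give how reads that fit several places were counted; its level is uncertain, and the part of the pseudogenes in the difference was not tested.

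Atp6v1g2, the neuronal G subunit, did not share the lower level. It held 365, 469, 336 and 370 CPM in mutant replicates 1 to 4 and 365, 384, 388 and 319 CPM in the wild types. The groups overlapped, the highest library was mutant replicate 2 and the lowest wild type replicate 4. Its mutant mean was 385 ± 57.9 and its wild type mean 364 ± 32.0 CPM (SD; n = 4 per group), and its log2 fold change was 0.08 (SE 0.11). The direction rested on the library of highest level: without mutant replicate 2 the value was -0.03, and with a term for the 4 shallower libraries it was -0.01. Without wild type replicate 4, the lowest library, it was 0.02. The highest values were 0.16 with the length and GC offset and 0.14 without mutant replicate 3. In exons Atp6v1g2 overlaps Nfkbil1, on the other strand, over 144 bases, and the treatment of strand is not given. Nfkbil1 had 9.67 CPM in the mutant mean against 9.93 CPM in that of wild type.

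The make-up of subunit G message moved with these levels. Per length, Atp6v1g2 took 81.1%, 83.6%, 78.4% and 81.1% of the summed G level in mutant replicates 1 to 4 and 75.8%, 76.0%, 77.0% and 73.7% in wild type replicates 1 to 4. The groups did not overlap, with means of 81.1% ± 2.12 and 75.6% ± 1.38 (SD, n = 4 each). This share is built from the same counts that put Atp6v1g1 on the low side, and is no separate observation. The summed level of 8 general neuron markers, such as Snap25 and Rbfox3, was 6271, 7283, 5685 and 6050 CPM in mutant replicates 1 to 4, and 6454, 6292, 6483 and 5157 CPM in the wild types. Its highest and lowest libraries were those of Atp6v1g2, and the part of neuron content in the level of that gene was not tested. In whole tissue, fewer cells of a type and less RNA per cell cannot be told apart.

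The stalk partner of both G subunits, Atp6v1e1, lay between them. Its mutant libraries held 235, 259, 229 and 229 CPM and its wild type libraries 267, 276, 272 and 236 CPM. Wild type replicate 4 fell among the mutants, so the groups overlapped. The mutant mean was 238 ± 14.0 CPM, the wild type mean 263 ± 18.4 CPM (SD; n = 4 per group), and the log2 fold change was -0.14 (SE 0.07). With the length and GC offset it was 0.0087. Its exons share 32 bases with Slc25a18 on the other strand.

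In the rotor, subunit F varied more than D in mutants, relative to their levels, but not in wild type. This difference in spread was not tested. Atp6v1f held 53.0, 76.2, 63.3 and 66.4 CPM in mutant replicates 1 to 4, and 76.3, 79.6, 79.2 and 73.1 CPM in wild type. Mutant replicate 1 was the lowest of all libraries, while mutant replicate 2 reached the wild type range. The mutant mean of 64.7 ± 9.54 CPM compared with 77.1 ± 3.04 CPM (SD; n = 4 per group), and the log2 fold change was -0.25 (SE 0.10). Without mutant replicate 1 it was -0.17, and without mutant replicate 2 it was -0.34. Atp6v1f has the shortest transcript of the 9 genes, 703 bases, and its log2 fold change with the length and GC offset was -0.022. A processed pseudogene, AC169506.3, matched it at 97.5% over 360 bases.

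Atp6v1d, which forms the rotor shaft with F, held 178, 179, 155 and 161 CPM in mutants and 167, 190, 176 and 160 CPM in wild type. Each group spanned nearly the range of the other. The log2 fold change was -0.04 (SE 0.08).

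The head subunits were level between genotypes. Atp6v1a, which binds and hydrolyses ATP, held 561, 543, 513 and 520 CPM in mutants and 544, 536, 543 and 542 CPM in wild type. The wild type libraries all fell inside the mutant range, and the spread was wider in mutants (SD 21.9 CPM) than in wild type (SD 3.69 CPM, n = 4 each), a difference that was not tested. Its log2 fold change was -0.02 (SE 0.06). Atp6v1b2 held 684, 768, 619 and 664 CPM in mutants and 697, 724, 696 and 654 CPM in wild type, again with all wild types inside the mutant range, and a log2 fold change of -0.02 (SE 0.08). Mutant replicate 2 was highest and mutant replicate 3 lowest.

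The connectors C and H gave small differences. Atp6v1c1 held 207, 239, 187 and 196 CPM in mutants and 212, 228, 215 and 199 CPM in wild type, with a log2 fold change of -0.04 (SE 0.09). Atp6v1h held 143, 146, 132 and 137 CPM in mutants and 151, 159, 149 and 146 CPM in wild type. In Atp6v1h the groups touched at mutant replicate 2 and wild type replicate 4, and the log2 fold change was -0.12 (SE 0.06). With the length and GC offset it was 0.02. Its exons share 127 bases with Rgs20 on the other strand.

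**Figure D2:**
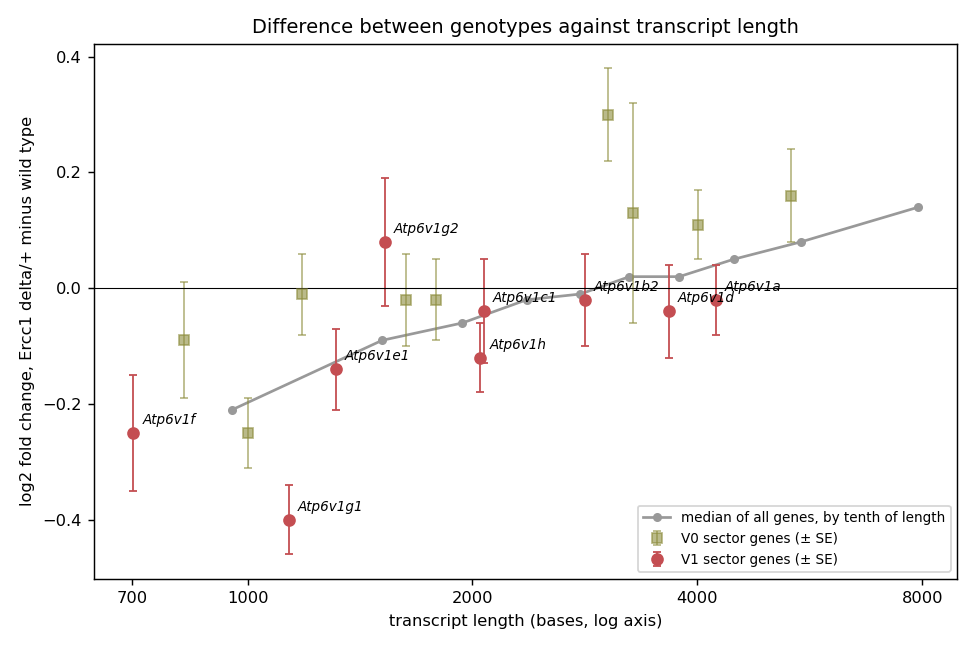
Log2 fold change of Ercc1 delta/+ minus wild type (vertical axis, bars ± SE) against transcript length in bases (log axis) for 9 V1 genes (red) and 9 V0 genes (olive), with the median of all genes in each of 10 equal length classes as a grey line. The line runs from -0.21 in the shortest to 0.14 in the longest class; Atp6v1f and Atp6v1e1 lie near it, and Atp6v1g1 lies below it at -0.40.

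The members thus followed the order of their transcript lengths in part. The 3 shortest, Atp6v1f, Atp6v1g1 and Atp6v1e1, had the most negative values of the 9, and the 3 longest, Atp6v1a, Atp6v1d and Atp6v1b2, lay between -0.04 and -0.02. Atp6v1g2, with 1528 bases, did not follow it. With the length and GC offset the median of the 9 genes was 0.0091, against -0.04 without, and Atp6v1g1 was the lowest of them still, at -0.20. With a depth term (a factor for the 4 shallower libraries) the median was -0.13. The offset removes the trends over length and GC together, so it does not separate them. What lies behind the relation with length was not tested.

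Library by library, the genotypes overlapped in 8 of the 9 genes. The mean of the 9 genes, as log2 CPM relative to the 8 libraries, was -0.08, 0.09, -0.14 and -0.09 in mutant replicates 1 to 4 and 0.05, 0.12, 0.08 and -0.03 in wild type replicates 1 to 4. Mutant replicate 2 stood among the wild types. Mutant replicate 3, the library richest in choroid plexus markers and lowest of the 8 in dopaminergic marker sum, was below the 8-library mean in all 9 genes, by values of -0.07 to -0.17. The summed V1 level had a mean of 2487 ± 189 CPM in the mutant libraries against 2563 ± 108 CPM in wild type (SD; n = 4 per group), a difference smaller than the spread.

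**Figure D3:**
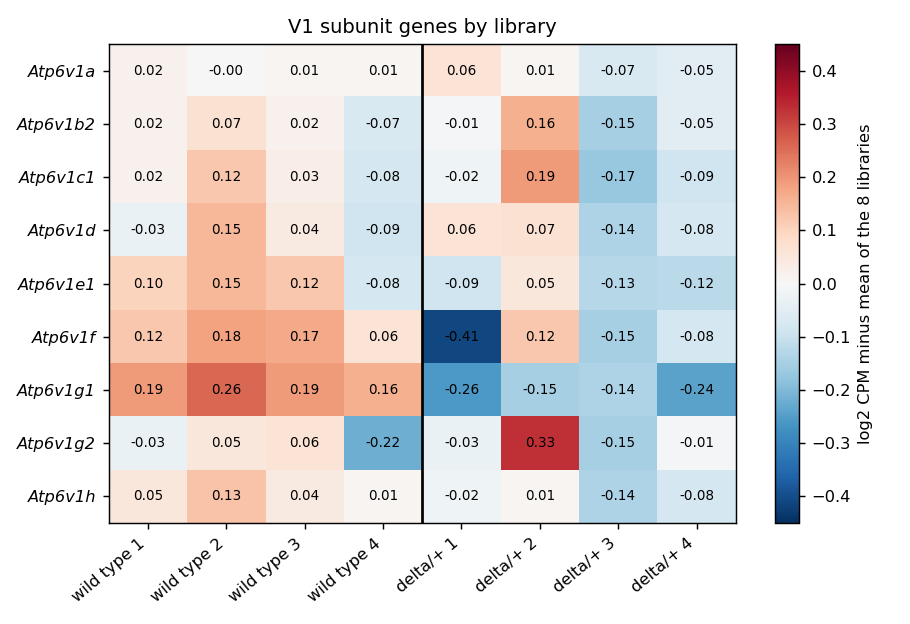
Log2 CPM of each V1 gene minus its mean over the 8 libraries, with wild type libraries left of the black line and Ercc1 delta/+ libraries right of it; red is above the mean and blue below. Atp6v1g1 is positive in all 4 wild types (0.16 to 0.26) and negative in all 4 mutants (-0.26 to -0.14), and mutant replicate 3 is negative in every row.

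Genes outside the V-ATPase with the most similar profile were sought by the root mean square distance of centred log2 CPM from the mean profile of the 9 genes over 8 libraries. Among 15032 genes the 4 nearest were Scd1, a fatty acid desaturase gene (distance 0.027), Ilk, an adhesion kinase gene (0.029), Ptpa, a phosphatase activator gene (0.029), and Arl6ip5 (0.030). Of the members, Atp6v1e1 (0.035) and Atp6v1h (0.040) lay nearest to their own mean and Atp6v1g1 (0.158) farthest, at rank 5423 among all genes tested.

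The membrane sector V0, through which protons pass, was tested gene by gene. Of its 10 listed genes 9 were tested (Atp6v0d2 is not analysed here), 4 values were above and 5 below 0, and the median log2 fold change was -0.0099. By the edgeR quasi-likelihood test 0 passed an adjusted p of 0.05, where 0.0464% of all genes did. At an unadjusted p of 0.05 there were 2 of 9, where 18.7% of all genes passed, so the count is near the background. They are also the 2 that DESeq2 called (7.54% of all genes) and the 2 whose groups did not overlap (12.1% of all genes). Limma-voom and the edgeR exact test called 0 of 9, against 0.345% and 3.69% of all genes. Atp6v0b, a proteolipid of the rotor ring, had 134, 143, 143 and 143 CPM in the mutant libraries and 170, 158, 174 and 167 CPM in the wild types, with no overlap (log2 fold change -0.25, SE 0.06, adjusted p = 0.0875). With the length and GC offset its log2 fold change was -0.095 (adjusted p = 0.613). Tcirg1, the a3 subunit known from osteoclasts, had 22.0, 25.4, 23.9 and 24.4 CPM in mutants and 19.0, 17.6, 20.9 and 20.4 CPM in wild type, also with no overlap and in the other direction (log2 fold change 0.30, SE 0.08, adjusted p = 0.113). With the length and GC offset the log2 fold change of Tcirg1 was 0.21 (adjusted p = 0.435).

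The other a subunits, which anchor the stalks in the membrane and set where the pump goes, were near level. Atp6v0a1, the main neuronal form, had a log2 difference of 0.11 (SE 0.06, adjusted p = 0.327) and Atp6v0a2 one of 0.16 (SE 0.08, adjusted p = 0.301). They were 0.04 and 0.07 with the length and GC offset, and Atp6v0a2 was 0.07 with the depth term also. Per length Atp6v0a1 took 89.1% ± 0.541 of the level of the 4 subunit a genes in wild type and 88.5% ± 0.233 in mutants (SD, n = 4 each). V1 genes made up 49.0% ± 0.612 of the summed per-length V1 and V0 level in wild type and 48.2% ± 1.43 in mutants (SD, n = 4 each), a difference smaller than the spread in mutants.

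Genes that help to build or control the pump went in both directions, and none passed. Of 19 listed, 17 were tested, with 10 positive, 7 negative and a median log2 fold change of 0.06. The edgeR quasi-likelihood test called 0 of them at an adjusted p of 0.05, where 0.0464% of all genes passed. At an unadjusted p of 0.05 it had 5 of 17, where 18.7% of all genes passed. DESeq2 called 2 of 17 (7.54% of all genes), the edgeR exact test 2 (3.69%) and limma-voom 0 (0.345%). Vma21, a chaperone of V0 assembly in the endoplasmic reticulum, had 56.6, 52.9, 58.5 and 51.6 CPM in mutants and 74.6, 74.1, 71.8 and 65.3 CPM in wild type. Tmem199, another V0 assembly factor, had 27.5, 29.7, 26.5 and 28.4 CPM in mutants and 35.6, 34.9, 34.7 and 38.2 CPM in wild type. In both genes all mutants were below all wild types. They were the only 2 of the 17 with that pattern, against 6.88% of all genes. Mitf was the only 1 of the 17 with all mutants above all wild types, against 5.17% of all genes. The log2 fold change was -0.38 for Vma21 (SE 0.07, adjusted p = 0.0566) and -0.36 for Tmem199 (SE 0.07, adjusted p = 0.0586). With the length and GC offset the values were -0.21 (adjusted p = 0.309) and -0.22 (adjusted p = 0.338). The transcripts have 4195 and 1347 bases, with a GC content of 35.9% and 49.3%.

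Ccdc115, the partner of Tmem199 in that step, had a log2 difference of -0.20 (SE 0.10, adjusted p = 0.319), and it is named after its value was seen. Atp6ap2, an accessory subunit that is also the prorenin receptor, had one of -0.26 (SE 0.09, adjusted p = 0.164), and -0.095 with the offset. The components of the RAVE complex, which puts V1 back on V0, were also named after their values were seen: Dmxl2, Wdr7 and Dmxl1 had log2 fold changes of 0.17, 0.16 and 0.16 (adjusted p = 0.247, 0.280 and 0.303) and Rogdi 0.02. The first 3 were 0.07, 0.05 and 0.10 with the length and GC offset, and the sign of Rogdi turned in 3 of 19 alternatives. Among transcription factors that control lysosomal genes, Mitf had a log2 difference of 0.31 (SE 0.13, adjusted p = 0.241), Tfe3 0.13 and Tfeb 0.06, the last pair also named after their values were seen. The offset put Tfe3 at 0.05 and Tfeb at -0.03.

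**Figure D4:**
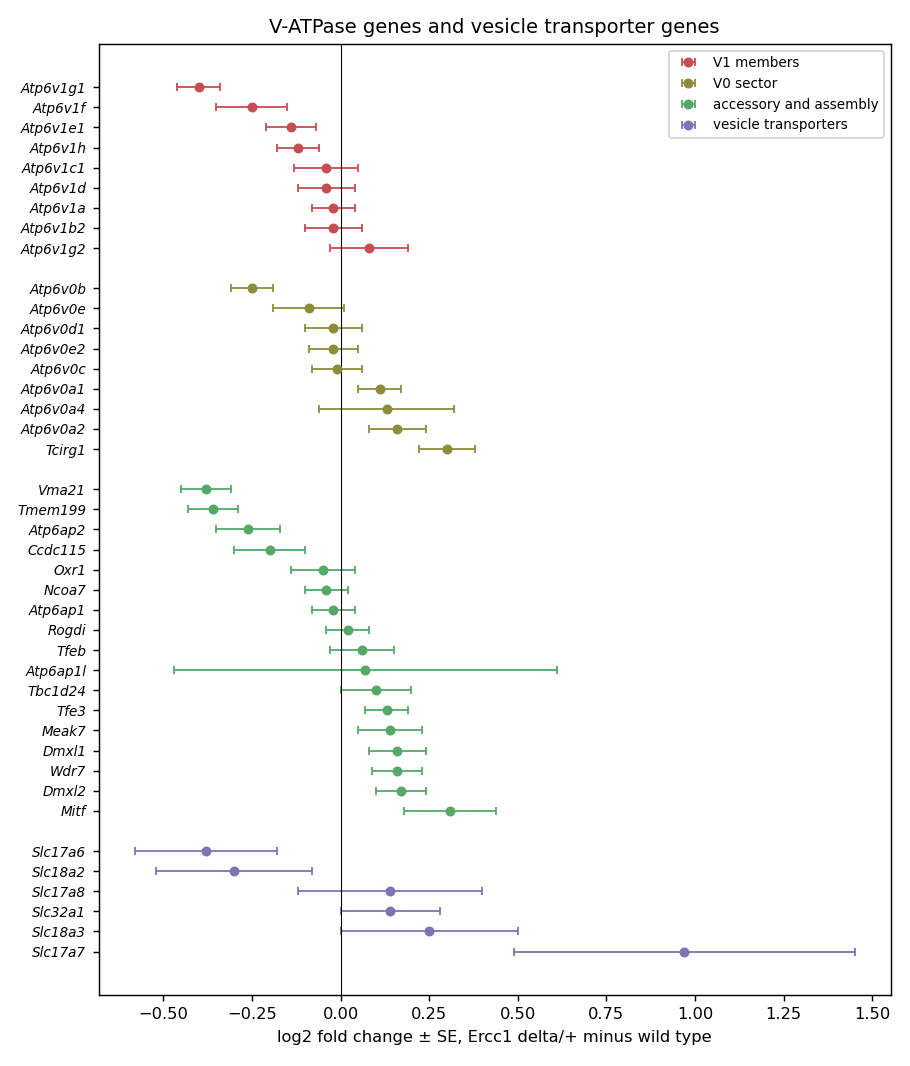
Log2 fold change ± SE of Ercc1 delta/+ minus wild type (horizontal axis) for 9 V1 genes (red), 9 V0 genes (olive), 17 accessory, assembly and regulator genes (green) and 6 vesicle transporter genes (purple), sorted within each list. Atp6v1g1, Vma21 and Tmem199 lie at -0.40, -0.38 and -0.36, and most genes of the pump lie within 0.2 of 0 on either side.

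The transporters that use the vesicular proton gradient varied more than the pump. Of 6 tested, 0 passed the edgeR quasi-likelihood test at an adjusted p of 0.05, against 0.0464% of all genes. At an unadjusted p of 0.05 there were 0, against 18.7% of all genes. DESeq2, limma-voom and the edgeR exact test each called 0, against 7.54%, 0.345% and 3.69% of all genes. With so few genes, counts of 0 are near these shares. Slc17a7, the glutamate transporter of forebrain neurons, had 690, 626, 222 and 332 CPM in mutants and 205, 439, 221 and 90.0 CPM in wild type (log2 fold change 0.97, SE 0.48, adjusted p = 0.313). Its highest libraries were mutant replicates 1 and 2, and its lowest was wild type replicate 4. The mean centred log2 CPM of the forebrain and thalamic neuron markers was highest and lowest in the same libraries. It was 0.88, 1.27, -0.40 and -0.14 in mutant replicates 1 to 4 and -0.16, 0.40, -0.34 and -1.50 in wild type replicates 1 to 4. The summed CPM of these markers did not follow it, with 393, 410, 626 and 539 in mutant replicates 1 to 4. In wild type replicates 1 to 4 the sums were 791, 451, 632 and 405. The part of forebrain tissue in the log2 fold change of Slc17a7 was not tested. With the depth term the log2 fold change of Slc17a7 was 0.34. Slc17a6, its counterpart in midbrain and thalamus, had one of -0.38 (SE 0.20, adjusted p = 0.349), the monoamine transporter Slc18a2 -0.30 (SE 0.22, adjusted p = 0.504) and the GABA transporter Slc32a1 0.14 (SE 0.14, adjusted p = 0.618). These values leaned on single libraries. Slc17a6 ran from -0.50 (without wild type replicate 2) to -0.23 (without wild type replicate 1) and was -0.14 with the depth term. Slc18a2 ran from -0.43 (without mutant replicate 2) to -0.07 (without wild type replicate 3). Slc32a1 ran from 0.06 (without wild type replicate 4) to 0.23 (without wild type replicate 3) and was 0.04 with the length and GC offset. The median within-group SD on the log2 CPM scale was 0.397 in these 6 genes and 0.101 in the 9 V1 genes, beside 0.165 over all genes tested.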

How the data were processed

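Poly(A) RNA of 8 samples was sequenced in 1 lane, per the labels' protocols. TopHat 1.3.1, edgeR and the mm9 build are named in the submitters' processing notes, without their roles; the counting tool is not given in the sources used here. The authors deposited raw counts for 19931 coding RefSeq rows, and their own log2 fold changes, p-values and adjusted p-values, which were not used for any result. The lowest row total was 31 counts.

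Rows were named through RefSeq (GRCm38.p6) and GENCODE M21 tables: 19456 matched and 475 kept their identifier. The row of highest total stood for each gene (2832 genes had several), and 152 genes with counts identical to another were merged with it, leaving 15359, of which 97.7% had a transcript length. Replicates differed beyond sampling noise (lowest chi-square over degrees of freedom 11.7). The test was edgeR 4.0.16 quasi-likelihood in R 4.3.3, with TMM, filterByExpr and two-sided Benjamini-Hochberg adjusted p-values over 15074 genes; log2 CPM used a prior count of 2. Standard errors are the estimate divided by the root of F. The fit was tried on simulated data. DESeq2 1.42.0, limma 3.58.1 and the other alternatives are given in the closing section. Near-identical transcripts were sought with BLAST 2.17.0 (at least 95% over 100 bases). Limits from 3 counts cover counting error only. The members and lists were chosen with earlier results of these data known. Named were all members, Ercc1, up to 4 genes of smallest p per list and the 4 nearest profiles; further genes are said to be named after their values were seen.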

Additional observations from a re-analysis of the deposited data

Results flagged for a closer look

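Across 46 groups of 4 libraries (23 genes in each genotype), 1 held a library far from the other three. Atp6v0b stood at 134 CPM in Ercc1 delta/+ replicate 1, while the other three mutant libraries all held 143 CPM, so the gap was 0.956 of the range. Chance flags about 1 in 20 such groups. All 4 mutant libraries were below the wild type range of that gene, 158 to 174 CPM.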

How the results depend on the processing

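The count of genes past the threshold over all genes, 7, moved with nearly every choice: 33 with RLE scaling, 77 with upper-quartile scaling, 66 with a filter of 1 CPM in all 8 libraries, 1046 with DESeq2, 556 with the edgeR exact test, 52 by limma-voom (the exact test was added after seeing the data), 4 with every transcript as its own row, and 1 each with the length and GC offset and the depth term. It ran from 0 to 310 when single libraries were left out, being 0 without mutant replicate 4 and 310 without mutant replicate 2. The V1 count of 0 became 1 (Atp6v1g1) with RLE, upper-quartile scaling, the 1 CPM filter, DESeq2, limma-voom and the exact test, and ran from 0 to 1 over left-out libraries, with 1 only without mutant replicate 2. The V0 count became 2 with DESeq2, and the accessory and assembly count 1 with upper-quartile scaling and 2 with DESeq2 and with the exact test, with 0 to 1 over left-out libraries. The V0 median log2 fold change was 0.0692 and the accessory and assembly median 0.0063 with the length and GC offset; over left-out libraries the latter ran from 0.0105 to 0.0827. The causes were not tested. With the replicate number as a block, 0 genes passed and the V1 median was -0.05. Same-numbered libraries deviated together in 2 of 4 pairs (correlations -0.27, 0.17, -0.12 and 0.26). Differently numbered pairs were not compared, so these values cannot tell whether same-numbered libraries were paired. The V1 median ran from -0.12 to -0.0046 and the V0 median from -0.0547 to 0.0165 over left-out libraries. Of the 9 V1 genes, 7 turned sign in 1 or 2 of 19 alternatives, and Atp6v1g1 and Atp6v1f did not. The length and GC offset turned Atp6v1a, Atp6v1c1, Atp6v1d, Atp6v1e1 and Atp6v1h together. Atp6v1g2 ran from -0.03 to 0.16. Outside V1, Ercc1 kept its sign, and of 19 named genes with a log2 fold change from a list 2 did not: Rogdi was -0.007 with upper-quartile scaling and -0.0267 to 0.0373 over left-out libraries, and Tfeb was -0.0307 with the length and GC offset. Over all settings Atp6v1g1 stayed between -0.42 and -0.20.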
